A study of Vitis vinifera with 36 samples.

Results

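At E-L 35, the stage of veraison at which berries begin to colour and soften, the transcriptomes of Cabernet Sauvignon berries sprayed with abscisic acid were compared with those of control berries. The comparison took in 6 of the 36 libraries of the series, 3 of ABA1000 berries and 3 of Control berries, chosen by their labels for treatment and stage. ABA1000 berries had been sprayed before veraison with 1000 mg/L abscisic acid (ABA) in a solution with a surfactant, and Control berries with the surfactant alone. Every group was of Vitis vinifera cv. Cabernet Sauvignon grown in field plots of a randomized block design, each replicate was a pool of berries, and RNA came from the whole pericarp after the seeds had been taken out. The other 30 libraries hold the same treatments at E-L 34, 36 and 38 and berries sprayed with 100 mg/L of the synthetic auxin NAA, and they served here for the estimate of the spread and for the comparison of stages. Each treatment was sampled when its own berries reached the stage, so that ABA1000 and Control berries of E-L 35 came from different dates, and treatment and date cannot be told apart. Values are FPKM, fragments per kilobase of transcript at a common library size, given for ABA libraries 1, 2 and 3 and then for Control libraries 1, 2 and 3, in the numbering of the table's columns.

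ABA is a hormone whose level goes up in the grape berry when ripening sets in. It is made in plastids from carotenoids, and the 9-cis-epoxycarotenoid dioxygenases (NCEDs) take the committed step, while 8'-hydroxylases of the cytochrome P450 class inactivate it. When receptors of the PYR/PYL family bind ABA they block type 2C protein phosphatases (PP2Cs), which frees SnRK2 kinases to activate bZIP factors of the ABF and ABI5 type. In the red grape skin ABA is known for its link to sugar uptake and to the MYBA factors that switch on anthocyanin synthesis, while auxin is known to hold ripening back.

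The recovered depth was 24.0 to 24.3 M fragments in the ABA libraries and 24.3 to 24.8 M fragments in the Control libraries. The ABA libraries listed 4660 to 4671 genes of the table at 0 FPKM and the Control libraries 4079 to 4394, so that fewer genes were detected with ABA, and the part of this in the counts of lower genes was not tested. Transcripts of seeds were found in ABA 2 and to a lesser degree in Control 3, although the tissue was deseeded. A 2S albumin-like gene (VIT_219s0177g00090, named after its values were seen), for a storage protein of the seed, was at 2.2, 955 and 0.0509 FPKM in the ABA libraries, against 0, 0 and 10.3 FPKM in the Control libraries. Of 38 tested genes on the lists of seed globulins, oleosins and late embryogenesis abundant proteins, 32 were highest in ABA 2, and 23 of these were second highest in Control 3. Control libraries also differed in how far they had moved along ripening. On a line drawn through 1892 genes that differed between control berries of E-L 34 (0%) and of E-L 36 (100%), ABA 1, 2 and 3 lay at 45.8%, 43.9% and 40.3%, while Control 1, 2 and 3 lay at 31.8%, 58.2% and 40.8%. The ABA libraries therefore fell within the range of the controls, with Control 1 the least and Control 2 the most advanced of the 6.

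**Figure D1:**
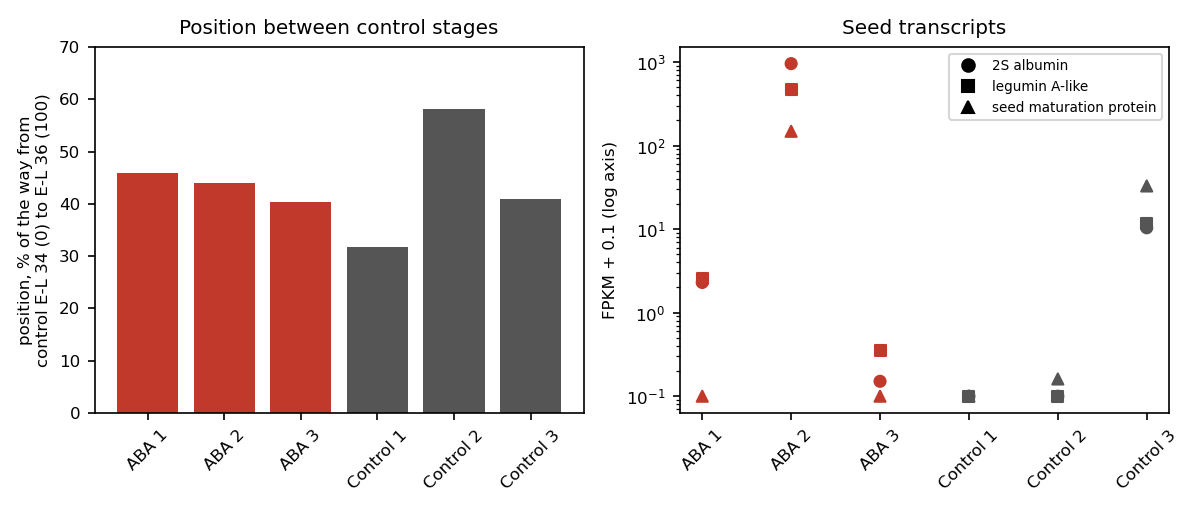
Left, position of each E-L 35 library on the line from control berries of E-L 34 (0%) to control berries of E-L 36 (100%), in percent, over 1892 genes. Right, FPKM + 0.1 on a log axis of 3 seed transcripts in the same libraries, where points at 0 FPKM coincide at the foot of the plot. The 3 ABA libraries sit between 40.3% and 45.8% and the Control libraries between 31.8% and 58.2%, and the seed transcripts stand out in ABA 2 and Control 3.

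Across all genes, 149 were higher and 107 lower in ABA berries than in Control berries among 17598 tested, called where the adjusted p did not exceed 0.01 and the groups lay 1 log2 unit or more apart (limma on log2(FPKM + 1), all 36 libraries sharing 1 estimate of the spread). These are 0.847% and 0.608% of the genes tested, or 1.45% together. Of the 256 called genes, 253 had no overlap between the 3 ABA and the 3 Control libraries, a pattern that 11.5% of all genes showed in the higher and 24.0% in the lower direction. A lack of overlap in a called gene is therefore no separate result. The median log2 fold change of all genes was −0.08. With the 6 libraries fitted alone, which leaves 4 residual degrees of freedom, limma called 28 genes higher (0.159%) and 8 lower (0.0455%), of which 27 and 8 were among those above. Counts depended on single libraries: 86 genes were higher and 71 lower without ABA 3, and 92 higher and 53 lower without Control 1, and 94 of the 256 genes (59 higher and 35 lower) kept their call whichever library was left out. The split between directions also moved with the scaling, to 141 higher and 178 lower with TPM, 193 higher and 85 lower with median-of-ratios size factors, 162 higher and 85 lower with quantile normalization, and 145 higher and 214 lower with a pseudocount of 0.1.

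Called genes overlapped with the programme of ripening in both directions. In control berries 319 genes rose (1.81% of those tested) and 1573 fell (8.94%) between E-L 34 and E-L 36. Of the 149 genes higher in ABA berries, 17 (11.4%) rose and 58 (38.9%) fell in the controls, which are 5.33% of the rising and 3.69% of the falling genes. Of the 107 genes lower in ABA berries, 13 (12.1%) rose and 34 (31.8%) fell in the controls, or 4.08% and 2.16% of those genes. The library Control 1, the least advanced, held the highest control value for 71 of the 107 lower genes, Control 2 for 21 and Control 3 for 15. For the 149 higher genes these counts were 35, 39 and 75, and no such count was made over all genes. The part of these library differences in the calls was not tested.

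Genes were then read by lists of pathways and families, each given as the number of members called and the median over the tested members, beside 0.847% called higher, 0.608% called lower and a median of −0.08 over all genes. Lists with the most members called higher were the DUF3774 family, the flavonoid hydroxylases, the general flavonoid pathway and the galactinol and raffinose genes. The DUF3774 list was drawn up after the values had been seen, so its place in this order is not independent of them. Members called lower were spread thinly, with 3 in the homeobox list and 1 or 2 in each of the other lists that had any, among them lists of hormones, cell wall, transcription factors, seed storage globulins and UDP-glycosyltransferases.

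**Figure D2:**
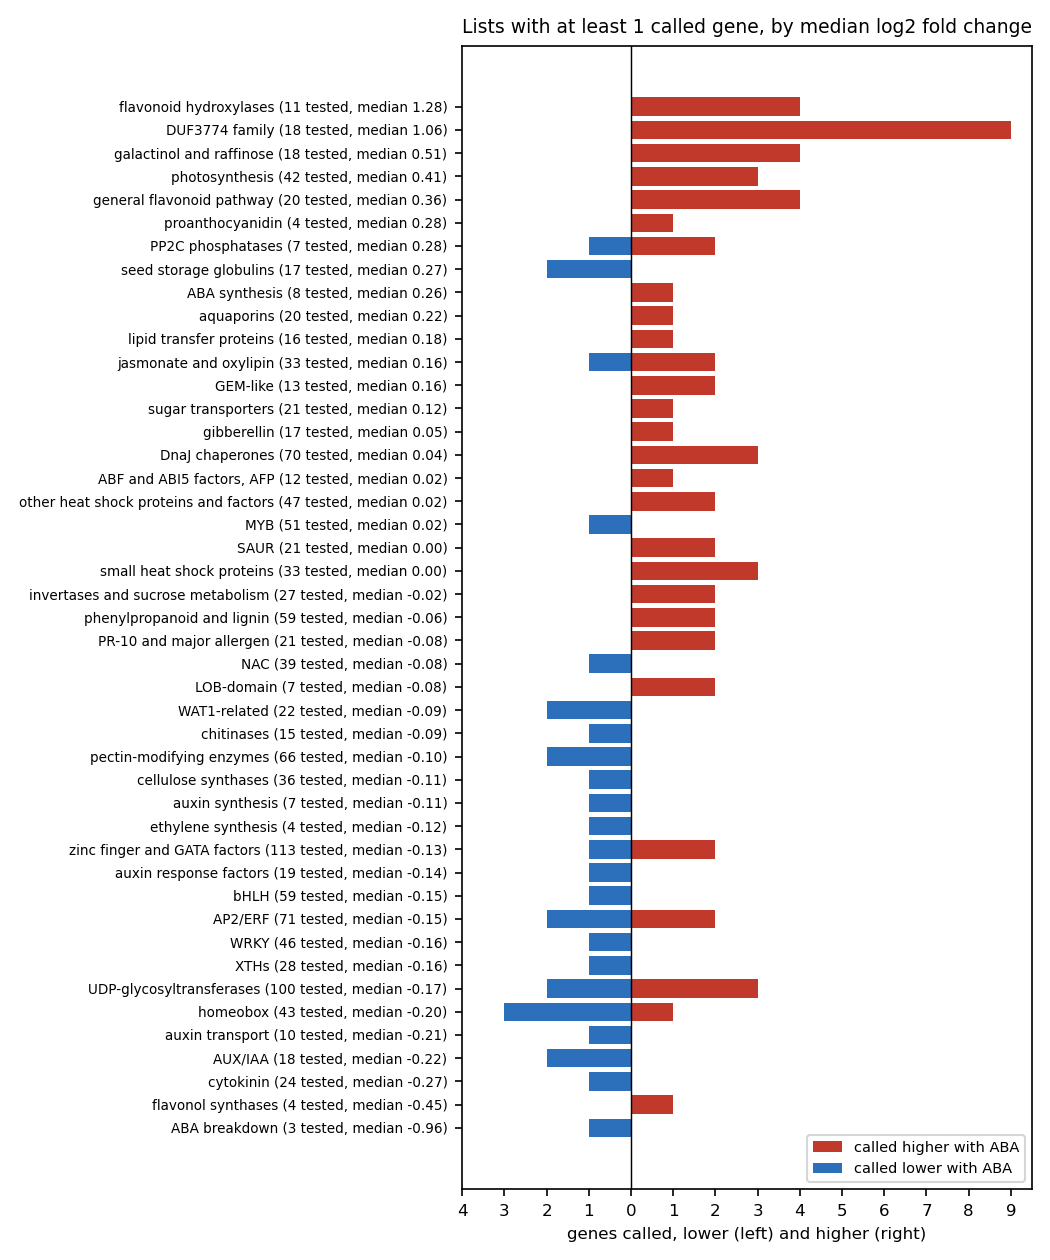
Number of genes called higher (red, right) and lower (blue, left) in ABA berries than in Control berries at E-L 35 for every list with at least 1 called member, ordered by the median log2 fold change of the tested members, which is written with the number tested beside each list. The DUF3774 family, listed after the values had been seen, has 9 of 18 members called higher, and the homeobox list has the most called lower, 3 of 43.

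Of the 8 tested genes of ABA synthesis, 1 was higher and none lower (median 0.26). This was the gene called NCED3 here (VIT_219s0093g00550, annotated as NCED1, chromosome 19, 17645348 to 17647649 on the plus strand), at 168, 199 and 188 FPKM in the ABA libraries, against 40.2, 50.4 and 54.8 FPKM in the Control libraries. All 3 ABA libraries lay far above all controls (log2 fold change 1.92 ± 0.30 SE, adjusted p in limma = 1.40e-04), and the call held without each of the 6 libraries. The gene called NCED1 here (VIT_205s0051g00670, annotated as NCED6) was at 3.92, 4.21 and 5.92 FPKM in the ABA libraries and 2.06, 4.18 and 2.67 FPKM in the Control libraries, which overlap. NCED2 (VIT_210s0003g03750, also annotated as NCED1) was at 32.7, 37.5 and 40.8 FPKM in the ABA libraries and 25.4, 27.3 and 23.5 FPKM in the Control libraries, with no overlap. Neither of these passed the test (log2 fold change 0.54 for NCED1 and 0.52 for NCED2, limma adjusted p = 0.146 and 0.16).

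Of 3 tested 8'-hydroxylases, the enzymes of ABA breakdown, 1 was lower (median −0.96). ABA 8'-hydroxylase 4 (VIT_203s0063g00380) was low everywhere, at 0.526, 1.06 and 0.538 FPKM in the ABA libraries, against 2.58, 3.91 and 2.09 FPKM in the Control libraries (log2 fold change −1.16 ± 0.23 SE, adjusted p in limma = 0.00106). Every control was above every ABA library, but the call was lost without Control 2 (log2 fold change −0.97). The more abundant VIT_202s0087g00710 did not overlap between groups either, at 11.7, 5.17 and 6.91 FPKM in the ABA libraries and 11.9, 22.6 and 14.2 FPKM in the Control libraries, and did not pass (log2 fold change −0.96, adjusted p in limma = 0.152).

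Among the genes of ABA signalling, 3 of 7 PP2Cs, in both directions, and 1 gene of the AFP family passed the test. None of the 5 tested receptors was called (median −0.06, limma; none had an unadjusted p under 0.05 and limma-voom called 0), nor any of 8 SnRK2 kinases (median −0.13; 5 at an unadjusted p under 0.05, limma-voom 0). Of 7 PP2Cs, 2 were higher and 1 lower (median 0.28), a list that includes genes the study picked on these libraries, so its direction is not independent evidence. The gene annotated as PP2C 8 (VIT_216s0050g02680, chromosome 16, 19697155 to 19699942 on the minus strand) was at 14.4, 19.5 and 19.5 FPKM in the ABA libraries, against 4.17, 4.4 and 2.89 FPKM in the Control libraries (log2 fold change 1.97 ± 0.34 SE, adjusted p in limma = 4.00e-04). PP2C 78 (VIT_206s0004g05460) was more abundant, at 88, 142 and 129.9 FPKM in the ABA libraries and 57.2, 53.7 and 40.1 FPKM in the Control libraries (log2 fold change 1.22 ± 0.24 SE, adjusted p in limma = 0.00106). Both calls held without each library in turn, that of PP2C 78 being lost when ABA 2 and Control 3 were left out together. PP2C 25 (VIT_206s0004g06840) went the other way, at 13.5, 14.6 and 12.7 FPKM in the ABA libraries, all below the 29.8, 25.2 and 35.9 FPKM of the Control libraries (log2 fold change −1.09 ± 0.21 SE, adjusted p in limma = 0.00104), a call lost without Control 3 (log2 fold change −0.96). PP2C 51 (VIT_202s0025g01390) was at 0.37, 2.48 and 0.221 FPKM in the ABA libraries and 0.29, 0.364 and 0.858 FPKM in the Control libraries, with no difference past the test (log2 fold change 0.28, adjusted p in limma = 0.635).

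Of 12 tested ABF and ABI5 factors and AFP proteins, 1 was higher and none lower (median 0.02). The Ninja-family protein AFP3 (VIT_200s0216g00060), of a family that binds ABI5 and dampens ABA responses in Arabidopsis, was at 13.9, 16.2 and 32.5 FPKM in the ABA libraries, against 2.41, 2.17 and 4.93 FPKM in the Control libraries (log2 fold change 2.36 ± 0.41 SE, adjusted p in limma = 3.86e-04). The lowest ABA library was above the highest control, and the call held without each of the 6 libraries. A homeobox gene annotated as ATHB-7 (VIT_215s0048g02870), induced by ABA in Arabidopsis, averaged 81.1 ± 8.43 FPKM in ABA berries and 39.6 ± 11.2 FPKM in control berries (SD, n = 3 each; log2 fold change 1.05, adjusted p in limma = 0.00887), but left the called set whichever library was omitted (limma adjusted p up to 0.054).

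**Figure D3:**
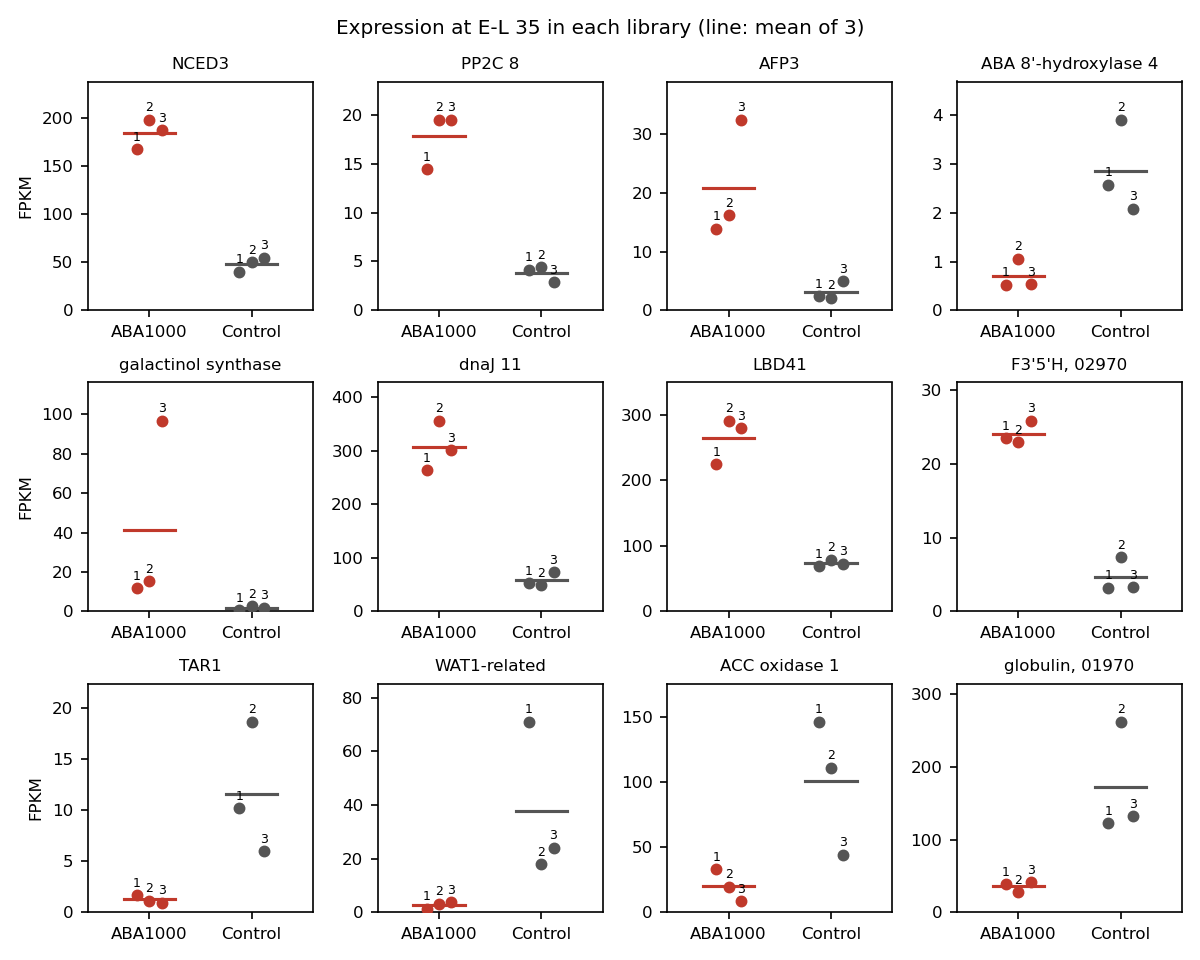
FPKM of 12 called genes in each E-L 35 library, with ABA1000 libraries in red at the left and Control libraries in grey at the right of each panel, the column number above each point and a line at the mean of 3. In all 12 panels the 3 libraries of one group lie above the 3 of the other, as in 253 of the 256 called genes, so this is no separate result.

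In the colour pathway, calls fell on hydroxylases and on single early steps, and none on the tested MYBA regulators or last steps. List medians were 1.28 for the hydroxylases, 0.36 for the general flavonoid pathway, 0.83 for the MYBA group and 0.83 for the finishing genes. Whether early and late steps differ was not tested. Flavonoid 3',5'-hydroxylases (F3'5'H) add the hydroxyl groups that lead to blue anthocyanins such as those of malvidin, and the flavonoid hydroxylase list had 4 of 11 members higher and none lower (median 1.28). The F3'5'H gene VIT_206s0009g02970 was at 23.5, 23 and 25.9 FPKM in the ABA libraries, against 3.22, 7.38 and 3.25 FPKM in the Control libraries (log2 fold change 2.24 ± 0.54 SE, adjusted p in limma = 0.00453). VIT_206s0009g02810, with the same annotation, was at 20, 20.3 and 19.2 FPKM in the ABA libraries, against 3.03, 5.87 and 2.18 FPKM in the Control libraries (log2 fold change 2.23, adjusted p in limma = 0.00348). VIT_206s0009g02840 was at 13.3, 16.2 and 16.7 FPKM in the ABA libraries, against 2.46, 5.49 and 2.23 FPKM in the Control libraries (log2 fold change 1.97, adjusted p in limma = 0.0076). In each of these genes Control 2, the most advanced control, was the highest of the controls and lay below every ABA library. The part of the position along ripening in these differences was not tested. F3'5'H genes stand in a cluster of closely similar copies on chromosome 6, between which mapped reads can be split, so the values of single copies are uncertain. Each of these 3 genes lost its call without ABA 1, ABA 2, ABA 3, Control 1 or Control 3 (limma adjusted p up to 0.0293, 0.0198 and 0.0403). A more abundant copy named after its values were seen, VIT_206s0009g02830, was at 66.2, 74.9 and 71.6 FPKM in the ABA libraries and 8.4, 22.7 and 9.86 FPKM in the Control libraries and missed the limit (log2 fold change 2.42, adjusted p in limma = 0.0205). A flavonoid 3'-monooxygenase (VIT_211s0016g01020), which leads to the red cyanidin branch, was at 9.95, 7.83 and 14.3 FPKM in the ABA libraries, against 2.78, 4.04 and 4.35 FPKM in the Control libraries (log2 fold change 1.28 ± 0.22 SE, adjusted p in limma = 3.22e-04), and kept its call without each library.

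Of the 20 tested genes of the general flavonoid pathway, 4 were higher and none lower (median 0.36). A gene annotated as flavanone 3-dioxygenase (VIT_216s0098g00860, chromosome 16, 21182902 to 21186983 on the minus strand) was at 24, 29 and 22.1 FPKM in the ABA libraries, against 1.22, 4.1 and 5.31 FPKM in the Control libraries (log2 fold change 2.64 ± 0.59 SE, adjusted p in limma = 0.00248). Its groups were well apart, but the call was lost without ABA 2 (adjusted p = 0.0132) or without Control 1 (adjusted p = 0.0277). A chalcone-flavonone isomerase-like gene (VIT_213s0067g02870) was at 52.2, 48.2 and 48.5 FPKM in the ABA libraries and 22.2, 28 and 18.5 FPKM in the Control libraries (log2 fold change 1.10 ± 0.13 SE, adjusted p in limma = 9.58e-06), a call lost without Control 3 (log2 fold change 0.96). The other called members, VIT_202s0025g02960 and VIT_202s0025g02970, both annotated as naringenin 3-dioxygenases, averaged 19.8 ± 7.12 FPKM in ABA berries and 5.18 ± 1.91 FPKM in control berries, and 2.42 ± 1.27 FPKM in ABA berries and 0.433 ± 0.284 FPKM in control berries (SD, n = 3 each). Their log2 fold changes were 1.74 and 1.21 (limma adjusted p = 0.00242 and 0.00201), both lost without ABA 3, Control 1 or Control 2 (adjusted p up to 0.0211 and 0.023). A chalcone synthase named after its values were seen (VIT_214s0068g00920), the first enzyme of the pathway, was at 79.4, 65.8 and 74.9 FPKM in the ABA libraries and 20, 48.7 and 13.7 FPKM in the Control libraries and did not pass (log2 fold change 1.58, adjusted p in limma = 0.0153).

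At the head of the pathway, a phenylalanine ammonia-lyase (VIT_206s0004g02620), the entry enzyme of phenylpropanoid synthesis, was at 35.3, 32.1 and 29.9 FPKM in the ABA libraries, against 4.77, 13.8 and 2.58 FPKM in the Control libraries (log2 fold change 2.31 ± 0.52 SE, adjusted p in limma = 0.00296). The ABA libraries were alike, while the controls spread with Control 2 highest, and the call was lost without ABA 1, ABA 2, ABA 3, Control 1 or Control 3 (limma adjusted p up to 0.0196). With a 4-coumarate-CoA ligase (VIT_216s0039g02040, log2 fold change 1.07, adjusted p in limma = 0.00455) it made 2 of 59 phenylpropanoid and lignin genes called higher (median −0.06), and that ligase too lost its call without ABA 1, ABA 3, Control 1 or Control 3 (adjusted p up to 0.029). None of 33 stilbene synthases was called (median −0.15; limma, 0 at an unadjusted p under 0.05, limma-voom 0). The proanthocyanidin list had 1 of 4 members higher, a leucoanthocyanidin reductase (VIT_201s0011g02960, chromosome 1, 2632427 to 2636395 on the minus strand) that makes tannin units. It was at 5.31, 4.78 and 4.3 FPKM in the ABA libraries, against 0.725, 1.39 and 1.58 FPKM in the Control libraries (log2 fold change 1.40 ± 0.15 SE, adjusted p in limma = 2.56e-06), the smallest adjusted p of the whole comparison, and the call held without each library.

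None of the 4 tested genes of the MYBA group was called (median 0.83; limma, 2 at an unadjusted p under 0.05, limma-voom 0). MYBA1 (VIT_202s0033g00410), the factor that turns on the last steps of anthocyanin synthesis, was at 12, 10.9 and 13.9 FPKM in the ABA libraries and 4.92, 8.47 and 3.86 FPKM in the Control libraries. The groups did not overlap, and the difference missed the limit on p (log2 fold change 1.03 ± 0.35 SE, adjusted p in limma = 0.0365). MYBA2 (VIT_202s0033g00390) was at 69.7, 59.7 and 67.8 FPKM in the ABA libraries and 35.2, 67 and 29.5 FPKM in the Control libraries, where Control 2 reached the level of the ABA libraries (log2 fold change 0.66, adjusted p in limma = 0.25). None of the 6 tested finishing genes was called (median 0.83; limma, 5 at an unadjusted p under 0.05, limma-voom 1). Among them glutathione S-transferase F12 (VIT_204s0079g00690, named after its values were seen), of a class that carries anthocyanins to the vacuole, was at 323, 363 and 361 FPKM in the ABA libraries and 89, 199 and 54.2 FPKM in the Control libraries (log2 fold change 1.81, adjusted p in limma = 0.0623). UFGT (VIT_216s0039g02230), the glucosyltransferase of anthocyanins, was listed at 0 in 5 of the 6 libraries and above 0 in 2 of 36, and was not tested. Its highest value in any of the 36 libraries was 0.0324 FPKM. The comparison therefore says nothing on this step, and the reason for the near absence of the gene was not tested. Control 2, the most advanced control on the line of ripening, was the highest control for MYBA1, MYBA2 and glutathione S-transferase F12.

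Genes that make raffinose-type sugars, linked in other plants to drought and seed drying, were among the strongest in ABA berries, with 4 of 18 higher and none lower (median 0.51). The largest rise of the comparison was a galactinol synthase (VIT_205s0077g00430, chromosome 5, 249237 to 251309 on the minus strand), at 11.9, 15.5 and 96.8 FPKM in the ABA libraries, against 0.758, 2.62 and 1.98 FPKM in the Control libraries (log2 fold change 3.37 ± 0.55 SE, adjusted p in limma = 2.56e-04). ABA 3 was several times above the other ABA libraries, which were in turn above every control, and the call held without each library, the log2 fold change being 2.45 without ABA 3. A raffinose synthase (VIT_211s0016g05770), which uses galactinol, was at 95.6, 130.1 and 149.9 FPKM in the ABA libraries, against 36.2, 46.2 and 60.9 FPKM in the Control libraries (log2 fold change 1.38 ± 0.24 SE, adjusted p in limma = 3.60e-04), and held likewise. Galactinol synthase VIT_214s0060g00790 was at 75.2, 61.2 and 61.3 FPKM in the ABA libraries and 19.6, 21.5 and 34.3 FPKM in the Control libraries (log2 fold change 1.39, adjusted p in limma = 0.00683), but was lost without ABA 1, ABA 2, ABA 3, Control 1 or Control 2 (limma adjusted p up to 0.044). A further copy, VIT_205s0020g00330, was listed at 0 in all controls and at 0.594, 1.18 and 12.6 FPKM in the ABA libraries, of which only ABA 3 was high. That call was lost without ABA 3, Control 1, Control 2 or Control 3 (limma adjusted p up to 0.0384).

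Chaperones formed a further group. Of 70 DnaJ chaperones 3 were higher and none lower (median 0.04), and all 3 were annotated as the small chloroplast protein dnaJ 11. The first, VIT_218s0001g14440, was at 264, 356 and 301 FPKM in the ABA libraries, against 53.1, 48.4 and 73.3 FPKM in the Control libraries (log2 fold change 2.39 ± 0.32 SE, adjusted p in limma = 3.33e-05). The second, VIT_219s0015g01370, was at 186, 286 and 314 FPKM in the ABA libraries, against 64, 46.2 and 50.3 FPKM in the Control libraries (log2 fold change 2.25 ± 0.25 SE, adjusted p in limma = 4.64e-06). In VIT_203s0038g02110 the values were 23.9, 31.1 and 23.5 FPKM in the ABA libraries and 6.13, 4.34 and 6.96 FPKM in the Control libraries (log2 fold change 2.0 ± 0.35 SE, adjusted p in limma = 3.76e-04). All 3 genes had every ABA library at more than 3 times the level of any control except for ABA 1 in VIT_219s0015g01370, and all 3 calls held without each library. Of 33 small heat shock proteins, which keep damaged proteins from clumping, 3 were higher (median 0.00). None of these 3 was called without ABA 1, ABA 2, Control 1 or Control 2, and 1 of them was called without ABA 3. One of the 3 was VIT_204s0008g01550, at 17, 14.4 and 13.9 FPKM in the ABA libraries and 2.56, 2.24 and 6.24 FPKM in the Control libraries (log2 fold change 1.88, adjusted p in limma = 0.00448). That call was lost without ABA 1, ABA 2, ABA 3, Control 1 or Control 2 (limma adjusted p up to 0.0296), and the others, VIT_204s0008g01570 and VIT_213s0019g02740, had adjusted p up to 0.0473 and 0.0322 with a library omitted. Of 47 other heat shock proteins and factors 2 were higher, both HSC70 chaperones: VIT_208s0007g00130 averaged 91.3 ± 10.8 FPKM in ABA berries and 37.6 ± 16.3 FPKM in control berries (SD, n = 3 each; log2 fold change 1.33, adjusted p in limma = 0.00152; lost without Control 1 (adjusted p = 0.0197)).

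Genes of photosynthesis, which the berry shuts down as it ripens, gave a few calls in ABA berries. Of 42 tested photosynthesis genes 3 were higher and none lower (median 0.41), and 35 had a positive log2 fold change. Summed over the list, FPKM came to 2249, 2679.7 and 2445 in the ABA libraries and 2594, 1494 and 1785 in the Control libraries, so that Control 1, the least advanced control, was within the range of the ABA libraries and Control 2 and 3 were below it. A light-harvesting chlorophyll-binding protein (VIT_212s0028g00320) was at 19, 19.8 and 22.7 FPKM in the ABA libraries, against 7.95, 6.97 and 8.74 FPKM in the Control libraries (log2 fold change 1.28 ± 0.23 SE, adjusted p in limma = 4.70e-04). The photosystem II repair protein PSB27 (VIT_212s0059g01810) was at 22.2, 25.2 and 22.2 FPKM in the ABA libraries and 10.1, 9.86 and 11.6 FPKM in the Control libraries (log2 fold change 1.07 ± 0.17 SE, adjusted p in limma = 1.90e-04). In both genes every ABA library was above every control and the call held without each library, whereas a second light-harvesting gene (VIT_210s0003g02900, log2 fold change 1.29) was lost without ABA 2, ABA 3 or Control 2 (limma adjusted p up to 0.0196). In bulk tissue, fewer cells of a type and less RNA in each of them cannot be told apart.

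Genes of sugar and water transport gave few calls. Of 27 invertase and sucrose metabolism genes 2 were higher and none lower (median −0.02), both acid invertases, which split sucrose into glucose and fructose. VIT_200s2527g00010 was at 38, 42.5 and 51.3 FPKM in the ABA libraries, against 20.8, 19.5 and 21.1 FPKM in the Control libraries (log2 fold change 1.06 ± 0.19 SE, adjusted p in limma = 6.13e-04), a call lost without ABA 3 (log2 fold change 0.94). VIT_202s0154g00090 averaged 57.4 ± 7.24 FPKM in ABA berries and 27.5 ± 4.15 FPKM in control berries (SD, n = 3 each; log2 fold change 1.04, adjusted p in limma = 3.50e-04; lost without ABA 3 (log2 fold change 0.94) or without Control 2 (log2 fold change 0.94)). Of 21 sugar transporters 1 was higher (median 0.12), a polyol transporter (VIT_211s0016g03920) at 3.1, 3.99 and 3.46 FPKM in the ABA libraries and 1.32, 1.6 and 0.745 FPKM in the Control libraries (log2 fold change 1.04, adjusted p in limma = 9.31e-04), lost without ABA 2 (log2 fold change 0.96) or without Control 3 (log2 fold change 0.87). The abundant SWEET14 gene (VIT_217s0000g00830, named after its values were seen), a sugar exporter, was at 842, 679 and 909 FPKM in the ABA libraries and 544, 612 and 501 FPKM in the Control libraries and did not pass (log2 fold change 0.55, adjusted p in limma = 0.172). Of 20 aquaporins 1 was higher, the vacuolar TIP1-3 (VIT_206s0061g00730), with a mean of 142 ± 17.9 FPKM in ABA berries and 64.1 ± 8.78 FPKM in control berries (SD, n = 3 each; log2 fold change 1.13, adjusted p in limma = 0.00961), and its call was lost with any 1 library omitted (limma adjusted p up to 0.053).

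A group of neighbouring genes higher in ABA berries lay on chromosome 12, in a run of genes with the protein domain DUF3774, whose function is unknown. This family and the WAT1-related and GEM-like lists were drawn up after the values had been seen. Of 18 tested members of the family 9 were higher and none lower (median 1.06), and 8 of the 9 lay among the 14 genes from VIT_212s0057g00060 to VIT_212s0057g00220, between 8770227 and 8869649, all on the plus strand. VIT_212s0057g00140 was at 100.3, 98.7 and 125 FPKM in the ABA libraries, against 26.6, 25.9 and 27.8 FPKM in the Control libraries (log2 fold change 1.96 ± 0.31 SE, adjusted p in limma = 1.61e-04). VIT_212s0057g00150 was at 127, 133 and 151 FPKM in the ABA libraries, against 37.3, 42.7 and 36.2 FPKM in the Control libraries (log2 fold change 1.80 ± 0.32 SE, adjusted p in limma = 4.70e-04). The controls lay close together in both genes, every ABA library was far above them, and both calls held without each library. VIT_212s0057g00070 averaged 165 ± 18.6 FPKM in ABA berries and 56.5 ± 12.9 FPKM in control berries (SD, n = 3 each; log2 fold change 1.55, adjusted p in limma = 0.00306), but was lost without ABA 2, ABA 3, Control 1 or Control 3 (limma adjusted p up to 0.0161). Toward the end of the run VIT_212s0057g00210, named after its values were seen, had a negative log2 fold change, −1.16 ± 0.40 SE, with 1.8, 1.74 and 1.03 FPKM in the ABA libraries and 11.6, 1.56 and 4.38 FPKM in the Control libraries, which missed the limit (limma adjusted p = 0.0397). Neighbouring copies may share reads, which was not tested.

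**Figure D4:**
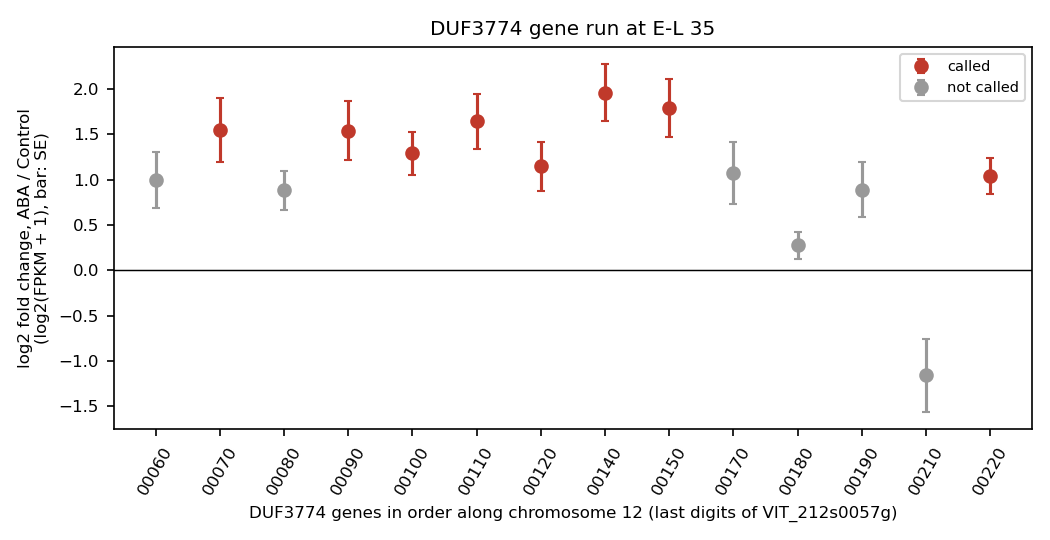
Log2 fold change of ABA over Control at E-L 35 on the log2(FPKM + 1) scale, with its SE, for the 14 tested DUF3774 genes of chromosome 12 in their order along the chromosome (the axis gives rank, not distance). Called genes are in red, and 13 of the 14 genes lie above 0.

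Of 7 LOB-domain factors 2 were higher and none lower (median −0.08). LBD41 (VIT_214s0006g02950, chromosome 14, 21210901 to 21212600 on the plus strand) was at 225, 291 and 279.6 FPKM in the ABA libraries, against 68.8, 79.1 and 73.1 FPKM in the Control libraries (log2 fold change 1.83 ± 0.33 SE, adjusted p in limma = 5.10e-04), and a relative (VIT_217s0000g03720) at 399, 439.9 and 459.6 FPKM in the ABA libraries and 222, 198 and 207 FPKM in the Control libraries (log2 fold change 1.04, adjusted p in limma = 1.24e-04). Groups were far apart in both, and both held without each library, although the second was lost with TPM. The ethylene-responsive factor ERF061 (VIT_202s0025g01360) was at 40.9, 27.8 and 52.5 FPKM in the ABA libraries, against 4.7, 11.6 and 17.4 FPKM in the Control libraries (log2 fold change 1.87 ± 0.33 SE, adjusted p in limma = 4.70e-04), and held as well. Among the 12 largest rises was also an F-box/kelch-repeat gene (VIT_209s0002g04930) at 12.7, 21.4 and 16.5 FPKM in the ABA libraries and 2.34, 3.06 and 2.18 FPKM in the Control libraries (log2 fold change 2.32, adjusted p in limma = 0.00239; lost without ABA 2, ABA 3 or Control 1 (limma adjusted p up to 0.0155)). A gene without a named product (VIT_213s0156g00100, chromosome 13, 23869564 to 23870145 on the plus strand) was at 90.6, 97.3 and 108 FPKM in the ABA libraries, against 16, 20 and 25 FPKM in the Control libraries (log2 fold change 2.24 ± 0.31 SE, adjusted p in limma = 5.51e-05), and held without each library. A serine carboxypeptidase-like gene (VIT_203s0088g00260) averaged 11.8 ± 2.17 FPKM in ABA berries and 2.18 ± 2.05 FPKM in control berries (SD, n = 3 each; log2 fold change 2.17, adjusted p in limma = 0.00122) and was lost without Control 1 (adjusted p = 0.0116).

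Of the called genes of the auxin lists, 5 were lower and 2 higher in ABA berries. Of 7 tested genes of auxin synthesis 1 was lower, TAR1 (VIT_200s0225g00230), annotated as the aminotransferase that starts auxin synthesis from tryptophan. It was at 1.71, 1.15 and 0.95 FPKM in the ABA libraries, against 10.2, 18.6 and 5.95 FPKM in the Control libraries (log2 fold change −2.36 ± 0.28 SE, adjusted p in limma = 9.21e-06). The lowest control was more than 3 times the highest ABA library, and the call held without each library. Of 10 auxin transporters 1 was lower (median −0.21), the efflux carrier PIN3 (VIT_201s0011g04860) at 19.5, 17.1 and 11.6 FPKM in the ABA libraries, against 42.1, 50.7 and 40.1 FPKM in the Control libraries (log2 fold change −1.43 ± 0.23 SE, adjusted p in limma = 2.41e-04), which held too. Of 18 AUX/IAA repressors 2 were lower and none higher (median −0.22), none of them called without ABA 3 and 1 without ABA 1, ABA 2, Control 1 or Control 2. IAA27 (VIT_211s0016g03540) was at 2.13, 2.41 and 1.91 FPKM in the ABA libraries and 17.6, 4.5 and 6.47 FPKM in the Control libraries (log2 fold change −1.54, adjusted p in limma = 0.00299), with Control 1 far above the other controls, and was lost without ABA 3 (adjusted p = 0.015) or without Control 1 (adjusted p = 0.0437). Auxin-induced protein 22A (VIT_209s0002g05150) was at 66, 71.1 and 59.4 FPKM in the ABA libraries and 107, 177 and 127 FPKM in the Control libraries (log2 fold change −1.03, adjusted p in limma = 0.00376), lost without ABA 1, ABA 2, ABA 3 or Control 2 (limma adjusted p up to 0.0306). Of 19 auxin response factors 1 was lower, ARF9 (VIT_215s0046g00290), at 0.291, 0.243 and 0.88 FPKM in the ABA libraries and 9.74, 1.75 and 3.61 FPKM in the Control libraries (log2 fold change −1.83, adjusted p in limma = 0.00204), lost without ABA 2 (adjusted p = 0.0122) or without Control 1 (adjusted p = 0.0299). None of 6 GH3 conjugating enzymes was called (median −0.58; limma, 3 at an unadjusted p under 0.05, limma-voom 0), and 2 of 21 SAUR genes were higher (median 0.00), of which 1 was left without ABA 2, ABA 3 or Control 2.

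The deepest fall was in a WAT1-related gene (VIT_208s0040g00800, chromosome 8, 11754054 to 11756658 on the minus strand), of a family that includes an auxin exporter of the vacuole in Arabidopsis. It was at 1.42, 3.23 and 3.77 FPKM in the ABA libraries, against 71.1, 18 and 24.1 FPKM in the Control libraries (log2 fold change −3.15 ± 0.45 SE, adjusted p in limma = 6.61e-05). Control 1 was well above the other controls, which were in turn above every ABA library. A second member (VIT_213s0084g00090) was at 2.68, 3.06 and 3.63 FPKM in the ABA libraries, against 26.9, 12.8 and 13.7 FPKM in the Control libraries (log2 fold change −2.12 ± 0.32 SE, adjusted p in limma = 9.00e-05), and both calls held without each library. They were the only 2 of 22 tested members that passed, and the median of the family was −0.09.

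Other hormone pathways changed in single genes. Of 4 tested genes of ethylene synthesis 1 was lower, ACC oxidase 1 (VIT_211s0016g02380), which makes ethylene from its precursor, at 33, 19.9 and 8.78 FPKM in the ABA libraries, against 147, 111 and 44.5 FPKM in the Control libraries (log2 fold change −2.25 ± 0.57 SE, adjusted p in limma = 0.00672). Library 3 was the lowest of its group in both groups, the groups did not overlap, and the call was lost without ABA 2, ABA 3, Control 1 or Control 2 (limma adjusted p up to 0.0545). None of 15 ethylene signalling genes was called (median −0.19; limma, 9 at an unadjusted p under 0.05, limma-voom 2 lower). Of 24 cytokinin genes 1 was lower (median −0.27), the cytokinin dehydrogenase CKX6 (VIT_213s0158g00320), which degrades the hormone. It was at 1.01, 0.815 and 1.03 FPKM in the ABA libraries, against 6.56, 6.13 and 2.66 FPKM in the Control libraries (log2 fold change −1.58 ± 0.23 SE, adjusted p in limma = 7.90e-05), and held without each library. A zeatin O-glucosyltransferase (VIT_208s0007g08910), which stores cytokinin as a glucoside, averaged 0.508 ± 0.676 FPKM in ABA berries and 6.66 ± 5.24 FPKM in control berries (SD, n = 3 each; log2 fold change −2.23, adjusted p in limma = 5.35e-04) and held as well. Jasmonate and oxylipin genes went both ways, 2 of 33 higher (1 of them left without ABA 1, ABA 2, ABA 3, Control 1 or Control 2) and 1 lower (median 0.16). Of these, allene oxide synthase (VIT_218s0001g11630) was at 61.3, 63.7 and 77.7 FPKM in the ABA libraries and 21.7, 28.5 and 36.1 FPKM in the Control libraries (log2 fold change 1.22 ± 0.21 SE, adjusted p in limma = 4.02e-04). The lipoxygenase VIT_209s0002g01080 was at 13.8, 13.6 and 18.8 FPKM in the ABA libraries, against 56.4, 39 and 45 FPKM in the Control libraries (log2 fold change −1.54 ± 0.28 SE, adjusted p in limma = 5.69e-04), and both of these held without each library. None of 9 brassinosteroid genes was called (median −0.14; limma, 4 at an unadjusted p under 0.05, limma-voom 0), and 1 of 17 gibberellin genes was higher (median 0.05), which was lost without ABA 3, Control 1 or Control 2.

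Genes of the cell wall, which loosens as the berry softens, gave few calls. Of 28 xyloglucan endotransglucosylases 1 was lower (median −0.16), VIT_211s0052g01300, at 3.15, 2.53 and 2.78 FPKM in the ABA libraries and 17.5, 10.8 and 12.8 FPKM in the Control libraries (log2 fold change −1.92, adjusted p in limma = 0.00276), lost without ABA 2, ABA 3 or Control 1 (limma adjusted p up to 0.0222). Of 66 pectin-modifying enzymes and their inhibitors 2 were lower (median −0.10), with a polygalacturonase inhibitor (VIT_213s0064g01370) at 1.45, 0.428 and 0.161 FPKM in the ABA libraries and 1.79, 3.51 and 3.5 FPKM in the Control libraries (log2 fold change −1.27, adjusted p in limma = 5.84e-04) that held without each library. None of 18 expansins was called (median 0.00; limma, 6 at an unadjusted p under 0.05, limma-voom 0), nor any of 10 endoglucanases (median 0.49; 5 at an unadjusted p under 0.05, limma-voom 0).

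A pair of globulin genes on chromosome 12 was lower, apart from the seed transcripts described above. VIT_212s0034g01970, annotated as a glutelin, was at 38.5, 27.8 and 41.8 FPKM in the ABA libraries, against 122, 262 and 132 FPKM in the Control libraries (log2 fold change −2.15 ± 0.31 SE, adjusted p in limma = 7.90e-05). Control 2, the most advanced control, was the highest and ABA 2, the library with most seed transcript, was the lowest of the 6, and the call held without each library. Its neighbour VIT_212s0034g01950 was at 3.53, 2.03 and 5.26 FPKM in the ABA libraries and 12.9, 32.4 and 13.8 FPKM in the Control libraries (log2 fold change −2.11, adjusted p in limma = 0.00132), lost without ABA 2 (adjusted p = 0.0119) or without Control 2 (adjusted p = 0.0131). They were the only 2 of 17 tested seed storage genes that passed. The sum over that list was 174, 3162 and 164 FPKM in the ABA libraries and 260.3, 419.5 and 530.1 FPKM in the Control libraries.

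Transcription factors gave calls in both directions. Of 71 AP2/ERF factors 2 were higher and 2 lower (median −0.15). ERF012 (VIT_218s0001g03240) was at 18, 9.11 and 8.56 FPKM in the ABA libraries, against 41.2, 41.3 and 57.4 FPKM in the Control libraries (log2 fold change −1.94 ± 0.30 SE, adjusted p in limma = 1.27e-04), and ERF12 (VIT_210s0003g00130) at 0.811, 1.79 and 2 FPKM in the ABA libraries and 10.2, 5.3 and 8.22 FPKM in the Control libraries (log2 fold change −1.81, adjusted p in limma = 8.82e-05), both held without each library. Of 43 homeobox genes 1 was higher and 3 lower (median −0.20). The higher call was lost with any 1 library omitted, and 1 lower call was left without ABA 1, ABA 3 or Control 1. Among the lower ones was a relative of GLABRA 2 (VIT_209s0002g04340), a factor of epidermal cells in Arabidopsis. It was at 7.44, 7.72 and 6 FPKM in the ABA libraries and 19.6, 16.9 and 13.4 FPKM in the Control libraries (log2 fold change −1.12 ± 0.15 SE, adjusted p in limma = 3.93e-05). Every ABA library was below every control in these genes. One gene each was lower of 39 NAC factors (NAC25, VIT_217s0000g00770, log2 fold change −1.68, lost without ABA 3 (adjusted p = 0.0177) or without Control 1 (adjusted p = 0.0107)), 46 WRKY factors (VIT_208s0058g00690, −1.47, lost without ABA 2 (adjusted p = 0.0103)) and 51 MYB factors (MYB108, VIT_207s0005g01950, −1.31, lost without ABA 3 (adjusted p = 0.025) or without Control 1 (adjusted p = 0.0123)). None of 18 MADS-box genes was called (median −0.01; limma, 2 at an unadjusted p under 0.05, limma-voom 0). The Nudix hydrolase VIT_217s0000g02050, among the 12 largest falls, was at 2.13, 3.6 and 3.16 FPKM in the ABA libraries, against 21.5, 10.5 and 16.7 FPKM in the Control libraries (log2 fold change −2.09 ± 0.28 SE, adjusted p in limma = 4.45e-05), and held without each library. VIT_200s0323g00060, annotated as a 21 kDa protein, was far higher in Control 1 than in the other controls. It was at 10.6, 8.93 and 9.78 FPKM in the ABA libraries and 147, 16.2 and 37.4 FPKM in the Control libraries (log2 fold change −2.10, adjusted p in limma = 0.00877; lost without ABA 1, ABA 2, ABA 3, Control 1 or Control 3 (limma adjusted p up to 0.111)).

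Further called genes were mostly of low level. Of 16 lipid transfer proteins 1 was higher (median 0.18), VIT_214s0006g02530, at 8.24, 8.36 and 11.2 FPKM in the ABA libraries, against 2.77, 2.01 and 2.02 FPKM in the Control libraries (log2 fold change 1.65, adjusted p in limma = 0.00272), lost without ABA 3 (adjusted p = 0.0175) or without Control 2 (adjusted p = 0.012). Of 21 PR-10 and major allergen genes 2 were higher (median −0.08), MLP-like protein 31 (VIT_201s0011g05170) and MLP-like protein 28 (VIT_201s0011g05190). MLP-like protein 31 was at 169, 159 and 147 FPKM in the ABA libraries, against 70.4, 70.8 and 46.7 FPKM in the Control libraries (log2 fold change 1.35 ± 0.28 SE, adjusted p in limma = 0.00158), and MLP-like protein 28 came to 1.03 on the log2 scale (limma adjusted p = 3.90e-06), short of the limit on fold without ABA 1, ABA 2 or Control 3 (log2 fold change 0.998, 0.99 or 0.94). Of 13 GEM-like proteins 2 were higher (median 0.16), with VIT_210s0071g00330 at 18.5, 15.4 and 19.6 FPKM in the ABA libraries and 3.46, 6.28 and 8.94 FPKM in the Control libraries (log2 fold change 1.45, adjusted p in limma = 4.83e-04). Of 100 UDP-glycosyltransferases, which attach sugars to small molecules, 3 were higher and 2 lower (median −0.17), and none was higher without ABA 3 or Control 1 and 1 without Control 2. The flavonol synthase list had 1 of 4 members higher, VIT_218s0001g03470, with a mean of 2.34 ± 1.03 FPKM in ABA berries and 0.434 ± 0.39 FPKM in control berries (SD, n = 3 each; log2 fold change 1.21, adjusted p in limma = 0.00162), lost without ABA 3 (adjusted p = 0.0171) or without Control 1 (adjusted p = 0.0123). In each of these named genes the lowest ABA library was above the highest control.

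Further falls depended on single libraries. HAT4 (VIT_215s0021g01880), a homeobox factor that responds to shade in Arabidopsis, was at 0.472, 0.784 and 0.605 FPKM in the ABA libraries and 9.92, 1.79 and 2.13 FPKM in the Control libraries (log2 fold change −1.50, adjusted p in limma = 0.00334), lost without ABA 1, ABA 3 or Control 1 (limma adjusted p up to 0.0461). ATHB-52 (VIT_210s0003g00380) was at 0.0897, 0 and 0 FPKM in the ABA libraries and 3.81, 0.176 and 1.3 FPKM in the Control libraries (log2 fold change −1.19, adjusted p in limma = 0.00577), lost without ABA 1, ABA 2, ABA 3, Control 1 or Control 3 (limma adjusted p up to 0.0792). Control 1 was the highest library for both. A gene with no named product (VIT_208s0007g02750), among the 12 largest falls, was at 1.1, 4.93 and 0.548 FPKM in the ABA libraries and 10.8, 10.8 and 12.8 FPKM in the Control libraries (log2 fold change −2.21, adjusted p in limma = 0.00799), lost without ABA 1, ABA 3, Control 1, Control 2 or Control 3 (limma adjusted p up to 0.055). A homologue of an Arabidopsis protease of guard cells (VIT_210s0071g00770) was at 5.98, 4.4 and 1.72 FPKM in the ABA libraries and 27.9, 16.7 and 9.71 FPKM in the Control libraries (log2 fold change −1.91, adjusted p in limma = 0.00482), lost without ABA 2, ABA 3, Control 1 or Control 2 (limma adjusted p up to 0.0461).

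Several large groups had no called member by limma. These were 283 ribosomal proteins (median 0.04; 54 at an unadjusted p under 0.05, limma-voom 0), 41 cyclins and their kinases (−0.15; 19, limma-voom 0), 27 histones (0.09; 12, limma-voom 0), 53 glutathione S-transferases (−0.12; 17, limma-voom 0) and 41 genes of organic acid metabolism (−0.02; 18, limma-voom 0). Of 66 cutin and wax genes none passed (median 0.17; 25 at an unadjusted p under 0.05, limma-voom 4 higher and 2 lower). Carotenoid genes were likewise not called, in synthesis (12 tested, median 0.06; 0 at an unadjusted p under 0.05, limma-voom 0) or cleavage (5 tested, median −0.03; 1, limma-voom 0). Among the cleavage enzymes, which release norisoprenoid aroma compounds, CCD4a (VIT_202s0087g00910) was at 0.498, 0.382 and 0.248 FPKM in the ABA libraries and 2.4, 1.43 and 1.09 FPKM in the Control libraries (log2 fold change −0.91, adjusted p in limma = 0.118). The groups did not overlap, and CCD4a was called lower in ABA berries at E-L 36 (log2 fold change −2.35, adjusted p in limma = 7.01e-04). CCD4b (VIT_202s0087g00930) was at 17.2, 18.1 and 17.1 FPKM in the ABA libraries and 16.3, 16.5 and 15.7 FPKM in the Control libraries and did not pass (log2 fold change 0.10, adjusted p in limma = 0.841).

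Most genes called at E-L 35 were not called at the stages on either side, and the test of the change itself picked out part of them. ABA berries of E-L 34 had 24 genes higher (0.136%) and 97 lower (0.551%) than control berries, 0.688% in all, and those of E-L 36 had 86 higher (0.489%) and 31 lower (0.176%), 0.665% in all. Of the 149 genes higher at E-L 35, 9 were also higher at E-L 34 (6.04% of these and 37.5% of the E-L 34 list) and 11 at E-L 36 (7.38% and 12.8%). Of the 107 lower genes, 16 were also lower at E-L 34 (15% and 16.5%) and 4 at E-L 36 (3.74% and 12.9%). The difference between ABA and control berries itself differed between E-L 35 and E-L 34 in 168 genes (0.955%, with 0.551% more positive and 0.403% more negative at E-L 35) and between E-L 35 and E-L 36 in 119 genes (0.676%, with 0.256% and 0.421%), by an interaction contrast in the same limma fit. Without ABA 3, Control 1 or Control 2 the count against E-L 34 was 52, 62 or 76, and without Control 3 it was 273. Against E-L 36 it was 78, 76 or 73 without ABA 1, ABA 3 or Control 1.

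NCED3 was called at E-L 35 and not at E-L 34 or E-L 36, with a log2 fold change of −0.70 ± 0.30 SE at E-L 34, 1.92 at E-L 35 and 0.92 ± 0.30 SE at E-L 36 (VIT_219s0093g00550; change from E-L 34 to E-L 35 2.62 ± 0.42 SE, limma adjusted p = 6.89e-04). The ABA 8'-hydroxylase VIT_203s0063g00380 ran the opposite way, at 0.89 at E-L 34 and −0.24 at E-L 36 around its −1.16 at E-L 35 (change from E-L 34 −2.05 ± 0.33 SE, limma adjusted p = 6.04e-04). ACC oxidase 1 (VIT_211s0016g02380) had 1.46 at E-L 34, −2.25 at E-L 35 and −0.17 at E-L 36, the change from E-L 34 being −3.71 ± 0.81 SE (limma adjusted p = 0.00682). PP2C 25 (VIT_206s0004g06840) had 0.91 at E-L 34, −1.09 at E-L 35 and 1.05 at E-L 36, where it was called higher in ABA berries, and changed from both other stages (by −2.0 against E-L 34 and −2.13 against E-L 36, limma adjusted p = 6.04e-04 and 1.40e-04). By contrast the galactinol synthase VIT_205s0077g00430 was called higher at each of these 3 stages, with 2.63 at E-L 34, 3.37 at E-L 35 and 3.30 at E-L 36. Its change between stages did not pass (limma adjusted p = 0.629 and 0.974). The WAT1-related VIT_208s0040g00800 was likewise called lower at all 3, with −2.37 at E-L 34, −3.15 at E-L 35 and −2.66 at E-L 36.

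**Figure D5:**
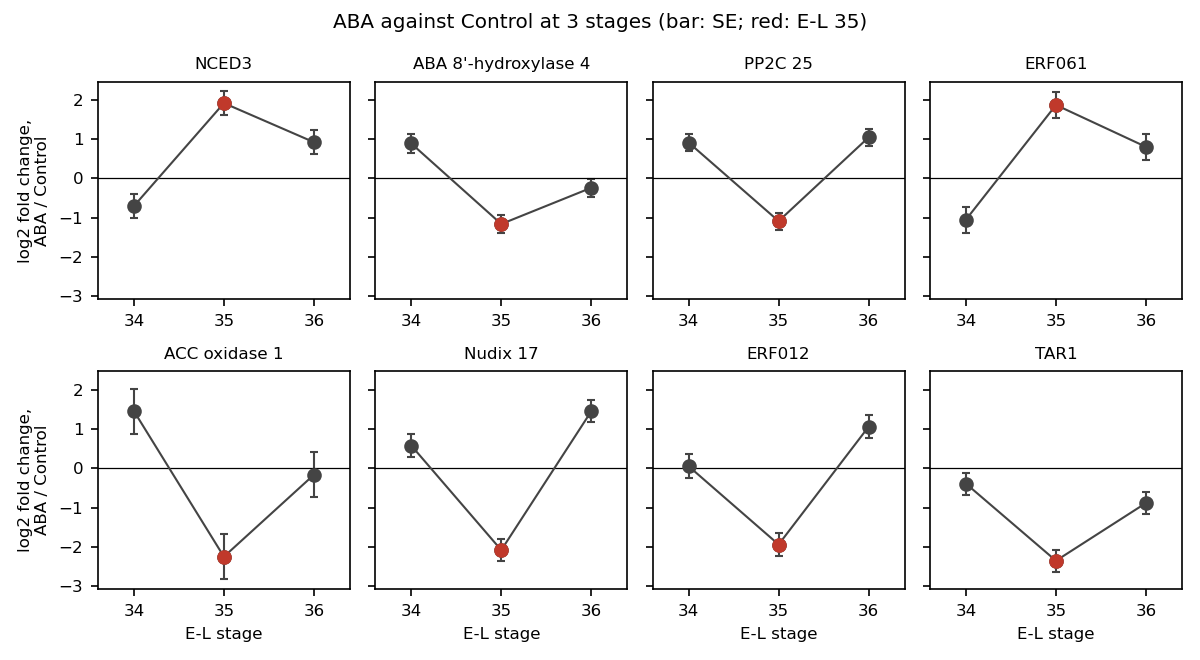
Log2 fold change of ABA over Control with its SE at E-L 34, 35 and 36 for 8 genes called at E-L 35, whose points are in red. The 8 genes were taken from those that passed the interaction contrast between E-L 35 and at least 1 of the other stages, so their change is no separate result.

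Berries sprayed with NAA were compared with the same 3 Control libraries at E-L 35, so the values of both treatments share their controls and are given side by side. With NAA, 225 genes were higher (1.28%) and 205 lower (1.16%), 2.44% in all. NCED3 (VIT_219s0093g00550) had a log2 fold change of 1.92 ± 0.30 SE in ABA berries and 1.42 ± 0.30 SE in NAA berries (limma adjusted p = 1.40e-04 and 0.00115). The leucoanthocyanidin reductase VIT_201s0011g02960 was also called in both, at 1.40 in ABA berries and 1.15 in NAA berries (limma adjusted p = 2.56e-06 and 9.65e-06), as was ACC oxidase 1 (VIT_211s0016g02380), at −2.25 and −4.50 (limma adjusted p = 0.00672 and 8.16e-06). The galactinol synthase VIT_205s0077g00430 was at −0.03 in NAA berries beside 3.37 in ABA berries, and the WAT1-related VIT_208s0040g00800 at 0.91 beside −3.15, neither of them called with NAA (limma adjusted p = 0.976 and 0.139). These genes are examples, and the genes called with both treatments were not counted. The 3 called photosynthesis genes were also called higher with NAA, at 2.05 (VIT_212s0028g00320), 2.23 (VIT_210s0003g02900) and 1.23 (VIT_212s0059g01810). The F3'5'H genes VIT_206s0009g02970, VIT_206s0009g02810 and VIT_206s0009g02840 were at −1.06, −0.89 and −0.69 in NAA berries and were not called. Whether the 2 treatments differ in any of these genes was not tested.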

How the data were processed

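The authors mapped paired-end HiSeq reads to the CRIBI grape genome with TopHat and deposited 1 table of FPKM per gene for all 36 libraries. Bowtie is named in the submitters' processing notes. The counting tool is not given in the sources used here, and neither is the genome version behind the table's coordinates. Columns carry replicate numbers and the labels letters, so columns were matched to groups only. Genes with at least 1 FPKM in at least 3 libraries (17598 of 25280) were fitted as log2(FPKM + 1) with limma 3.58.1 (R 4.3.3), using 12 group means, a trend and 24 residual degrees of freedom, and p-values were adjusted by Benjamini and Hochberg. Fold changes on this scale understate those of low genes. From the deposited FPKM, whole fragments were recovered (99.7% of values within 0.02 fragments, 24349 genes) and fitted with limma-voom. The fits were tested on simulated data. An exact permutation test of 3 against 3 libraries cannot go below p = 0.1.

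Named genes were the 12 largest rises and falls without overlap and with at least 10 FPKM in the higher group, up to 4 called members of each list, and anchors such as MYBA1 and the NCEDs; any other gene is said to have been named after its values were seen. Members and lists were chosen with earlier results of these data known. Alternatives were other scalings, pseudocounts, filters and fits, replicate blocks, and the omission of libraries.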

Additional observations from a re-analysis of the deposited data

Results flagged for a closer look

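Among the 103 genes tested by name, 28 had an ABA effect at E-L 35 that differed from the effect at E-L 34 or at E-L 36 by the interaction contrast of the limma fit (adjusted p of at most 0.01 and a difference of at least 1 on the log2 scale). Over all genes tested, 0.955% passed against E-L 34 and 0.676% against E-L 36. Of the 103 genes, 95 were called at E-L 35 and most were named for that, so a larger share among them is no separate result. The differences of the 28 genes all share the E-L 35 libraries, and over all genes the number with such a difference fell most without ABA 3 or Control 1. With 3 libraries in a group, none was examined for single outlying samples.

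Genes whose effect was more positive at E-L 35 than at E-L 34 were NCED3 (VIT_219s0093g00550, difference of log2 fold changes 2.62), ERF061 (VIT_202s0025g01360, 2.92), the naringenin 3-dioxygenases VIT_202s0025g02960 (2.41) and VIT_202s0025g02970 (1.63), the flavonoid 3'-monooxygenase VIT_211s0016g01020 (1.42), dnaJ 11 (VIT_219s0015g01370, 1.70), the HSC70 chaperones VIT_208s0007g00130 (2.02) and VIT_213s0019g01430 (1.82), VIT_213s0156g00100 (2.28), gibberellin-regulated protein 14 (VIT_214s0066g01790, 1.86) and the factor DOF5.4 (VIT_217s0000g04850, 1.47). Allene oxide synthase (VIT_218s0001g11630, difference 2.24) was called in opposite directions, its log2 fold change being −1.02 at E-L 34, against 1.22 at E-L 35.

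Genes whose effect was more negative at E-L 35 than at E-L 34 were ACC oxidase 1 (VIT_211s0016g02380, difference −3.71), the Nudix hydrolase VIT_217s0000g02050 (−2.66), ABA 8'-hydroxylase 4 (VIT_203s0063g00380, −2.05), PP2C 25 (VIT_206s0004g06840, −2.0), ERF012 (VIT_218s0001g03240, −1.99), TAR1 (VIT_200s0225g00230, −1.96), MYB108 (VIT_207s0005g01950, −1.79) and the GLABRA 2 relative VIT_209s0002g04340 (−1.30).

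Against E-L 36, the effect was more positive at E-L 35 for the small heat shock proteins VIT_204s0008g01550 (difference 3.47) and VIT_204s0008g01570 (3.15), dnaJ 11 (VIT_219s0015g01370, 1.93) and PSB27 (VIT_212s0059g01810, 1.28). It was more negative for the acidic endochitinase VIT_215s0046g01610 (difference −4.01), whose log2 fold changes of −1.49 (E-L 35) and 2.51 (E-L 36) were both called, the E-L 35 call being lost without ABA 1, ABA 2, Control 1, Control 2 or Control 3 (limma adjusted p up to 0.0675) and also lost with TPM, median-of-ratios size factors, quantile normalization, limma-voom and a pseudocount of 0.1. Effects of opposite sign were also called at both stages for the Nudix hydrolase VIT_217s0000g02050 (−3.54) and for PP2C 25 (VIT_206s0004g06840, −2.13). Those of the Nudix hydrolase were −2.09 (E-L 35) and 1.45 (E-L 36), and its E-L 35 call held without each library. The E-L 35 call of PP2C 25 was lost without Control 3. Further differences were those of ERF012 (VIT_218s0001g03240, −3.0), the xyloglucan endotransglucosylase VIT_211s0052g01300 (−2.72), the WRKY factor VIT_208s0058g00690 (−2.17), MYB108 (VIT_207s0005g01950, −2.15), the lipoxygenase VIT_209s0002g01080 (−2.10) and ERF12 (VIT_210s0003g00130, −1.70).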

How the results depend on the processing

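Against 149 genes higher and 107 lower in ABA berries, TPM gave 178 lower, a pseudocount of 0.1 gave 214 lower, limma-voom (added after the data were seen) gave 197 higher and 204 lower, and a test of the fewer genes that averaged 5 FPKM or more gave 107 higher and 65 lower. The 6 libraries alone gave 28 higher and 8 lower, and without a trend 10 higher and 2 lower. Leaving out 1 library gave 86 to 166 higher and 53 to 158 lower, and 52 to 273 and 73 to 106 genes whose ABA effect changed against E-L 34 and E-L 36. Without both ABA 2 and Control 3 (also added) the count against E-L 34 was 266. Same-numbered ABA and Control libraries had correlations of their deviations of 0.03, −0.29 and −0.13 over genes, and not every library correlated best with its own number. Deviations from a mean of 3 libraries depend on each other, and those of ABA 2 and Control 3 include seed transcripts. Whether the numbers stand for the blocks of the design therefore cannot be told from these correlations. With the replicate block in the 6 libraries limma called 0 higher and 0 lower, with 4677 genes at an unadjusted p under 0.05, and with the block by stage 141 higher and 98 lower. PP2C 51 (VIT_202s0025g01390), not called, had a log2 fold change of −0.20 without ABA 2 to 0.56 without ABA 3, and −0.036 without both ABA 2 and Control 3, against 0.28. Of the 103 genes tested by name, 95 were called. Of these 95, 11 lost the call with TPM, 25 with a pseudocount of 0.1, 42 without ABA 3 and 41 without Control 1. The call was lost by 36 without both ABA 2 and Control 3, 77 with the 6 libraries alone and 89 alone without a trend. With the block in the 6 libraries all 95 lost it. The cause was not tested in any of these. Depth was slightly lower in every ABA library than in every Control library, and genes near 1 FPKM rest on few fragments.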

Other observations

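Over the lists that mark seeds, summed FPKM of oleosins, the coat proteins of oil bodies, came to 63.8, 301 and 61 in the ABA libraries and 20.6, 26.3 and 74.4 in the Control libraries. Those of late embryogenesis abundant proteins and dehydrins came to 2514, 3064 and 2432 in the ABA libraries and 2094, 2222 and 2431 in the Control libraries. The median log2 fold changes of the oleosin, late embryogenesis and seed storage lists, 0.47, 0.51 and 0.27, turned negative without ABA 2, at −0.47, −0.37 and −0.64, and none of their genes was called higher.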
